A study of Mus musculus with 10 samples.

Results

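The 10 genes described here form the p53 and Gadd45 stress arrest group: Cdkn1a, Trp53inp1, Trp53, Mdm2, Ccng1, Bax, Gadd45a, Gadd45b, Gadd45g and Btg2. They were chosen by name, with earlier results of these data known. Their probes were found through the RefSeq accession that the array annotation gives for each probe. All 10 were on the array, with 17 of its 41174 probes, and all 10 were among the 26122 genes that could be tested. The study used 10 two-colour arrays of liver RNA from male C57BL/6N mice, with liver in Cy5 and a common commercial mouse RNA mixture in Cy3. A gavage of ethanol at 7 g/kg was given in 3 samples, ethanol at 5 g/kg in 4 samples, and maltose matched in calories to 5 g/kg ethanol in 3 samples. Every group therefore received a gavage, the maltose matched the lower ethanol dose and not the higher, and no group received neither ethanol nor maltose. The labels used here give no age, no time between gavage and collection and no number of gavages. They do not say that each sample is a separate animal, and the p-values therefore reflect only how far these arrays vary, which may be technical.

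The transcription factor p53, made from Trp53, is kept low by the ubiquitin ligase MDM2 and becomes active after DNA damage and other stress. It then raises genes that halt the cell cycle, such as Cdkn1a, whose product p21 blocks cyclin-dependent kinases, and genes that favour cell death, such as Bax. The GADD45 proteins bind p21, PCNA and stress kinases, and their genes also answer to cytokines and growth-arrest signals. In the liver, Cdkn1a is also known to respond to signals that do not pass through p53, including glucocorticoids. In whole liver RNA, fewer cells of a type and less RNA per cell cannot be told apart, and mRNA gives neither the amount of p53 protein nor its activity.

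The bases before the annotated gene starts are shown because several members are textbook p53 targets. RefSeq promoter windows of GRCm38.p6, each with 250 bases before and 50 after a start, were found for 9 of the 10 members, with 10 windows because Cdkn1a has 2. Trp53inp1 had no entry in the table used. The p53 half-site, a motif of 10 bases, was searched by its name's standard letters and reads the same pattern on both strands. A match to CATGNNNNNNCATG, the core of a pair of adjoining half-sites, was searched as well. It too is its own reverse complement, and the 2 motifs can overlap. In the lines below capitals mark matches to the half-site and, in Cdkn1a, also the 20 bases around the CATG pair. The Cdkn1a line gives the 250 bases before the upstream start (chr17:29090729-29090978, plus strand). The other lines give 40 bases around the match in Trp53 (chr11:69580269-69580308, plus strand), Mdm2 (chr10:117710920-117710959, minus strand), Ccng1 (chr11:40755447-40755486, minus strand), Bax (chr7:45467075-45467114, minus strand) and Gadd45a (chr6:67037423-67037462, minus strand), each written along the gene's strand.
Cdkn1a: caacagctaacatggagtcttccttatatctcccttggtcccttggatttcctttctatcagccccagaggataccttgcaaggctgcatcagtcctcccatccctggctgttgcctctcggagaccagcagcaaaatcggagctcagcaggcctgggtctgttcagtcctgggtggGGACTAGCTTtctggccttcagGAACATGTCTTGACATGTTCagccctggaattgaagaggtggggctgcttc
Trp53: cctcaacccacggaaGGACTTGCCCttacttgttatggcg
Mdm2: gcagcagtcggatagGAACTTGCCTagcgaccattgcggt
Ccng1: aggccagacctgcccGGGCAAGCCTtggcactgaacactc
Bax: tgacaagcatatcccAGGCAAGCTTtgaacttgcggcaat
Gadd45a: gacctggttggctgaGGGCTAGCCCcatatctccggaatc
Of 32851 RefSeq promoter windows, 8.36% held the half-site, 0.712% held the CATG pair and 0.07% held both. Among members, the windows of 6 genes held the half-site and those of 3, Gadd45b, Gadd45g and Btg2, did not. The CATG pair was found in 1 window, that of the upstream Cdkn1a start. The second Cdkn1a window (chr17:29093519-29093818, plus strand) held neither. A match is a description of these letters and not a site of binding.

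The values below are log2 ratios of liver over the common reference, per array, after background correction and loess normalization. They compare samples for a given gene, and say nothing of one gene's level against another's. A gene passed when its Benjamini-Hochberg adjusted p over all genes tested was under 0.05 in a limma fit of the 3 groups, and the word rose is used only then. A log2 change of 1 is a doubling. Per array, liver spots had a median signal of 121 to 219 units and a local background of 21 to 24 units, 67.3% to 86.2% of spots stood well above background, and the number of arrays limits the precision. Log2 ratios of pairs of arrays correlated at r = 0.0874 to 0.737 over genes, and no array was left out. Of 7 hepatocyte markers listed, 4 were matched to probes, and all 4 stood well above background on all 10 arrays.

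Cdkn1a, the gene of the cyclin-dependent kinase inhibitor p21, differed most from maltose of the 10 members at both ethanol doses. Its log2 ratio was 0.18, 0.39 and −0.06 on the 7 g/kg arrays, 0.26, 0.11, −0.06 and 0.25 on the 5 g/kg arrays, and −2.60, −2.07 and −2.50 on the maltose arrays. All 7 ethanol arrays lay above all 3 maltose arrays, and the arrays of the 2 doses were intermixed. The group means were 0.17 ± 0.23 at 7 g/kg (SD, n = 3), 0.14 ± 0.15 at 5 g/kg (SD, n = 4) and −2.39 ± 0.28 with maltose (SD, n = 3). At 7 g/kg Cdkn1a rose 5.90-fold over maltose (log2 2.56, SE 0.153, limma adjusted p = 2.72e-07), with a 95% interval of 4.70- to 7.40-fold. At 5 g/kg it rose 5.77-fold over maltose (log2 2.53, SE 0.143, limma adjusted p = 4.07e-07). The 2 doses differed by a log2 change of 0.03, with a 95% interval of −0.27 to 0.34 (adjusted p = 0.97). Among all genes tested, ordered by p, Cdkn1a stood in place 8 for 7 g/kg and in place 2 for 5 g/kg.

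The gain of Cdkn1a was visible in the liver channel before any ratio was taken. The liver signal was 2633 to 3221 units on the 7 g/kg arrays, 2134 to 2981 units on the 5 g/kg arrays and 266.5 to 425.9 units on the maltose arrays. The Cdkn1a probe is printed 10 times on each array, and the SD over its spots of an array was 0.0324 to 0.0873 on the log2 scale. This spread within arrays was smaller than the SD between arrays in each group. Of the 4 slides, those that held both groups gave differences from maltose of 2.26 to 2.44 at 7 g/kg (2 slides) and 2.18 to 2.86 at 5 g/kg (3 slides). The plot of each gene's ratios shows the separation of Cdkn1a beside the other members.

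**Figure D1:**
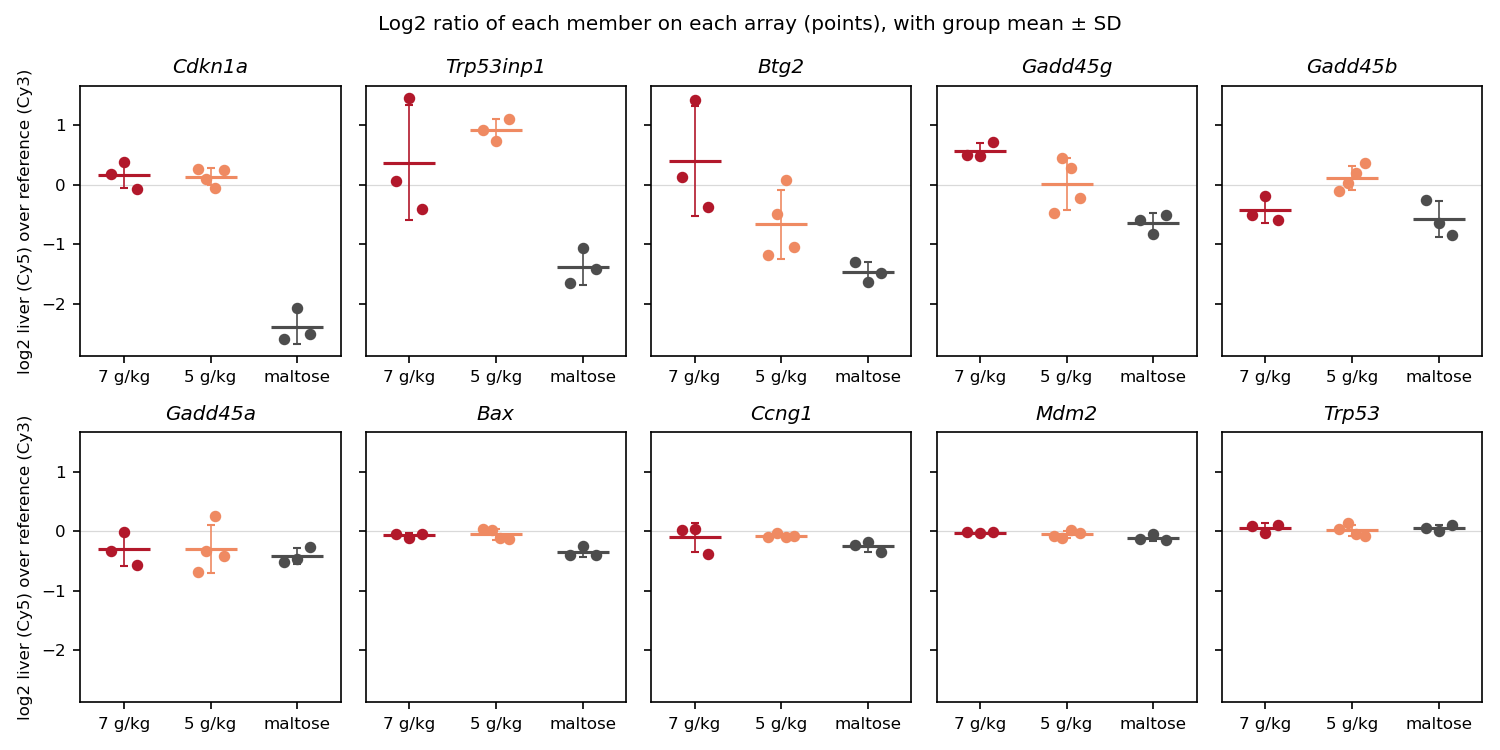
Log2 liver over reference ratio (vertical axis, 1 panel per gene) on each array of 7 g/kg ethanol, 5 g/kg ethanol and maltose, where points are arrays, the long bar is the group mean and the error bar is ± SD. The 7 ethanol arrays of Cdkn1a lie between −0.06 and 0.39 and its 3 maltose arrays between −2.60 and −2.07, while Trp53 and Mdm2 lie near 0 in every group.

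Trp53inp1 encodes a stress-induced nuclear protein that works with p53 and in autophagy. Its log2 ratio was 0.06, 1.46 and −0.40 on the 7 g/kg arrays, 0.92, 0.74 and 1.11 on the 5 g/kg arrays that gave a value, and −1.65, −1.06 and −1.42 on the maltose arrays. The scanner software marked the spot of the second 5 g/kg array as an outlier, and it was left out. Every ethanol array with a value lay above every maltose array, and 1 of the 3 arrays at 7 g/kg was far above the other two. At 7 g/kg Trp53inp1 rose 3.37-fold over maltose (log2 1.75, SE 0.339, limma adjusted p = 0.00511). At 5 g/kg it rose 4.93-fold over maltose (log2 2.30, SE 0.339, limma adjusted p = 0.00202, n = 3 and 3). The doses differed by −0.55, with a 95% interval of −1.28 to 0.18 (adjusted p = 0.638). Without the second 7 g/kg array, the change at 7 g/kg was 1.21 (adjusted p = 0.00201), and the difference between doses passed at −1.09 (limma adjusted p = 0.0166).

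A second Trp53inp1 probe could not be tested because its spots were marked as outliers on all 7 g/kg arrays. With marked spots kept, this probe read −0.16, 1.19 and −0.91 on the 7 g/kg arrays, 0.32, 0.38, 0.17 and 0.92 on the 5 g/kg arrays, and −2.04, −1.54 and −1.67 on the maltose arrays. The second 7 g/kg array was again the highest and the third again the lowest of its group. Its changes from maltose were then 1.79 at 7 g/kg (adjusted p = 0.00583) and 2.20 at 5 g/kg (adjusted p = 0.00202), beside 1.75 and 2.23 for the first probe on the same terms.

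Trp53 itself, which encodes p53, and Mdm2, which encodes the ligase that marks p53 for breakdown, did not pass in any comparison. Trp53 read 0.10, −0.03 and 0.12 on the 7 g/kg arrays, 0.04, 0.14, −0.04 and −0.08 on the 5 g/kg arrays, and 0.05, 0.00 and 0.11 on the maltose arrays. The 3 groups overlapped. The difference from maltose was 0.01 at 7 g/kg (95% interval −0.21 to 0.23, adjusted p = 0.981) and −0.04 at 5 g/kg (95% interval −0.24 to 0.17, adjusted p = 0.911). Both intervals lie within 0.25 log2 units of 0, so a change of the size of that of Cdkn1a lies outside them. Mdm2, which p53 also activates, read −0.01, −0.03 and −0.02 on the 7 g/kg arrays, −0.07, −0.11, 0.02 and −0.03 on the 5 g/kg arrays, and −0.12, −0.04 and −0.15 on the maltose arrays. The 7 g/kg arrays lay just above the maltose arrays, and the 5 g/kg arrays overlapped with both. The difference from maltose was 0.08 at 7 g/kg (95% interval −0.12 to 0.29, adjusted p = 0.727) and 0.05 at 5 g/kg (95% interval −0.14 to 0.24, adjusted p = 0.847). Both probes are printed 10 times per array, with a spot SD within arrays of 0.0483 to 0.109 for Trp53 and 0.0573 to 0.118 for Mdm2. A second Mdm2 probe changed by 0.30 at 7 g/kg (adjusted p = 0.239) and by 0.21 at 5 g/kg (adjusted p = 0.488). A second Trp53 probe had 1 unmarked maltose spot and could be tested only with marked spots kept, at 0.39 (adjusted p = 0.111) and 0.34 (adjusted p = 0.197).

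Ccng1 and Bax are standard p53 targets, the first encoding cyclin G1, which recruits a phosphatase to MDM2, and the second a protein that opens the outer mitochondrial membrane. Ccng1 read 0.03, 0.05 and −0.38 on the 7 g/kg arrays, −0.09, −0.03, −0.08 and −0.08 on the 5 g/kg arrays, and −0.22, −0.17 and −0.35 on the maltose arrays. The 5 g/kg arrays lay above the maltose arrays, while the third 7 g/kg array lay below all of them. The differences from maltose, 0.15 at 7 g/kg (adjusted p = 0.587) and 0.18 at 5 g/kg (adjusted p = 0.517), did not pass. A second Ccng1 probe changed by 0.03 and 0.05 (adjusted p = 0.938 and 0.87). Bax read −0.04, −0.10 and −0.05 on the 7 g/kg arrays, 0.04, 0.02, −0.12 and −0.13 on the 5 g/kg arrays, and −0.40, −0.24 and −0.40 on the maltose arrays. All ethanol arrays lay above all maltose arrays. The Bax difference was 0.28 at 7 g/kg (95% interval 0.07 to 0.50) and 0.30 at 5 g/kg (95% interval 0.10 to 0.50), with an adjusted p of 0.107 in each case, so it did not pass over all genes.

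The 3 GADD45 genes had 3 different patterns. Gadd45g, a growth arrest gene also induced by cytokines, rose at 7 g/kg. It read 0.50, 0.48 and 0.72 on the 7 g/kg arrays, −0.48, 0.46, 0.29 and −0.21 on the 5 g/kg arrays, and −0.58, −0.82 and −0.51 on the maltose arrays. The 3 groups did not overlap at all, in the order 7 g/kg, 5 g/kg, maltose, but the 5 g/kg arrays were spread over nearly the whole gap. At 7 g/kg the change from maltose was 2.31-fold (log2 1.21, SE 0.197, limma adjusted p = 0.00131). The log2 difference of 0.65 at 5 g/kg (SE 0.184) did not pass (adjusted p = 0.0679), and it passed without the first 5 g/kg array at 0.82 (adjusted p = 0.0166). The doses differed by 0.56 (95% interval 0.16 to 0.95, adjusted p = 0.216). Within slides the difference was 1.24 to 1.32 at 7 g/kg and 0.108 to 1.28 at 5 g/kg.

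Gadd45b, known as a gene answering to TGF-beta and NF-kB signals, rose at 5 g/kg and not at 7 g/kg. It read −0.50, −0.18 and −0.59 on the 7 g/kg arrays, −0.11, 0.03, 0.19 and 0.37 on the 5 g/kg arrays, and −0.25, −0.64 and −0.84 on the maltose arrays. The 5 g/kg arrays lay above both other groups, which overlapped with each other. The change from maltose at 5 g/kg was 1.62-fold (log2 0.69, SE 0.153, limma adjusted p = 0.0201), and at 7 g/kg the log2 difference was 0.15 (95% interval −0.20 to 0.50, adjusted p = 0.709). The doses differed by −0.54 (95% interval −0.87 to −0.22), which did not pass over all genes (adjusted p = 0.119), so the 2 doses are not shown to differ. The rise at 5 g/kg was the least stable call among members. It was lost without the third 5 g/kg array (adjusted p = 0.0535), the second maltose array (adjusted p = 0.0761) or the third maltose array (adjusted p = 0.113), and with slide as a block (log2 0.64, adjusted p = 0.0564). A second probe, well above background on 8 of 10 arrays, changed by 0.48 (adjusted p = 0.223) at 5 g/kg.

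Gadd45a, the member of the family most often described as a p53 target, did not pass. It read −0.33, −0.01 and −0.56 on the 7 g/kg arrays, −0.69, −0.33, 0.26 and −0.42 on the 5 g/kg arrays, and −0.52, −0.47 and −0.27 on the maltose arrays. The ranges of all 3 groups overlapped. The difference from maltose was 0.12 at 7 g/kg (95% interval −0.31 to 0.54, adjusted p = 0.831) and 0.13 at 5 g/kg (adjusted p = 0.826).

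Btg2 encodes an antiproliferative protein that recruits the CCR4-NOT deadenylase, and is known both as a p53 target and as an immediate early gene. It read 0.13, 1.43 and −0.37 on the 7 g/kg arrays, −1.19, −0.50, 0.08 and −1.04 on the 5 g/kg arrays, and −1.29, −1.62 and −1.49 on the maltose arrays. All ethanol arrays lay above all maltose arrays, with the second 7 g/kg array far above the rest, as for Trp53inp1. At 7 g/kg Btg2 rose 3.65-fold over maltose (log2 1.87, SE 0.372, limma adjusted p = 0.00521), and by 1.35 without the second 7 g/kg array (limma adjusted p = 0.0121). The difference of 0.80 at 5 g/kg (SE 0.348, 95% interval 0.06 to 1.55) did not pass (adjusted p = 0.273). The doses differed by 1.06 (95% interval 0.32 to 1.81, adjusted p = 0.211), and by 0.63 to 1.36 within slides. With slide as a block this difference was 0.95 and passed (limma adjusted p = 0.0284).

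The other 2 Btg2 probes gave the same direction. Their changes at 7 g/kg were 2.19 (limma adjusted p = 0.00213) and 1.28 (limma adjusted p = 0.00379, n = 2 at 7 g/kg). At 5 g/kg they were 1.12 (adjusted p = 0.115) and 0.90 (limma adjusted p = 0.0225), so 1 of the 3 Btg2 probes passed at the lower dose. The plot of several probes per gene shows that they ran in parallel over the arrays for Btg2 and Trp53inp1.

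**Figure D2:**
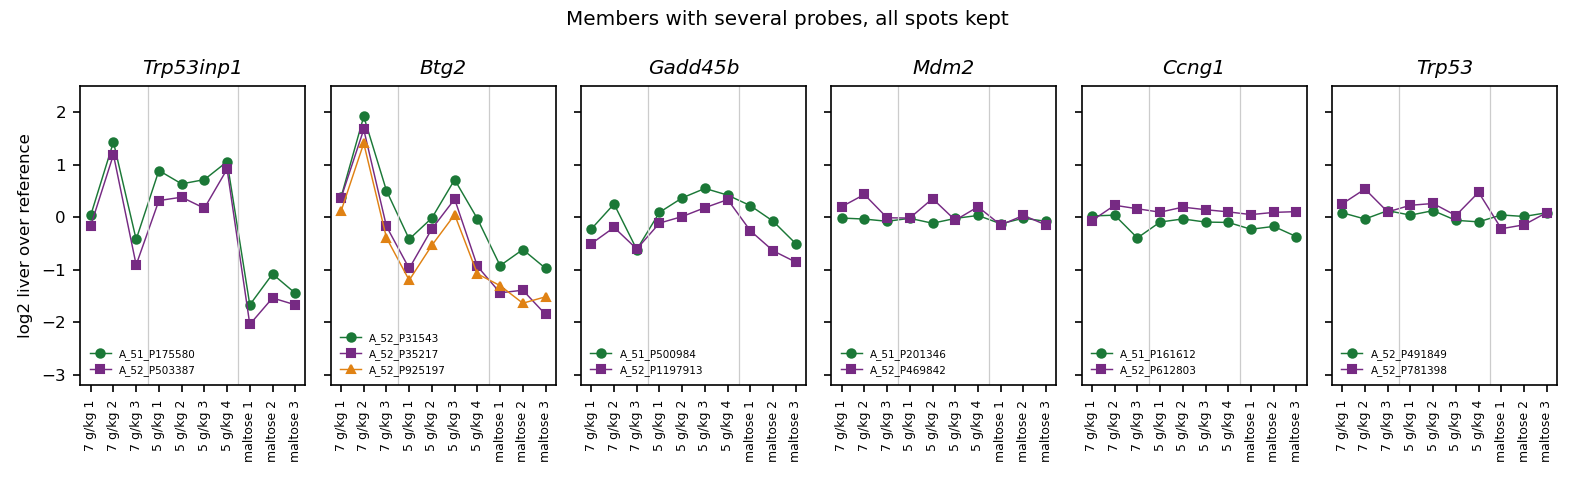
Log2 liver over reference ratio (vertical axis) of each probe on each of the 10 arrays (horizontal axis) for the 6 members with several probes, with all spots kept, where each line joins the values of 1 probe and vertical lines part the groups. For Trp53inp1 and Btg2 each probe is highest on the second 7 g/kg array, and for Trp53 and Mdm2 the probes stay between −0.22 and 0.54.

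By count, 4 of the 10 members rose at 7 g/kg over maltose (Cdkn1a, Trp53inp1, Gadd45g and Btg2), 0 fell and 6 did not pass, where 9% of all genes tested passed, 4.67% upwards and 4.33% downwards. All 10 differences were above 0, with a median of 0.22 beside 0.012 over all genes. The arrays of 7 g/kg and maltose did not overlap for 6 members, those 4 and Bax and Mdm2, where 25.4% of all genes did not overlap. At 5 g/kg 3 members rose (Cdkn1a, Trp53inp1 and Gadd45b), 0 fell and 7 did not pass, where 3.77% of all genes passed, 2.21% upwards and 1.56% downwards. There 9 of 10 differences were above 0, with a median of 0.48 beside 0.0026 over all genes. For 7 members the arrays of 5 g/kg and maltose did not overlap, where 16.9% of all genes did not. Both comparisons use the same 3 maltose arrays and are not independent of each other. The members were chosen with earlier results of these data known, so the counts and medians describe them and are not a test against all genes.

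Between 7 and 5 g/kg, 0 of the 10 members passed in the limma fit, where 1.57% of all genes passed. Before adjustment 3 had a p under 0.05, where 10.8% of all genes had: Gadd45b, Gadd45g and Btg2. Of the 10 differences 5 were above 0, and their median was 0.011 beside 0.0046 over all genes. The arrays of the 2 doses did not overlap for Gadd45b and Gadd45g, where 11% of all genes did not overlap. The intervals were narrow for Cdkn1a and wide for Trp53inp1 and Btg2, whose second 7 g/kg array stood apart, as the plot of changes with intervals shows. That array shared its slide with the third 5 g/kg array, and no maltose array was on this slide. For Btg2 both were the highest of their dose (1.43 and 0.08). For Trp53inp1 the second 7 g/kg array was the highest of its dose (1.46) and the third 5 g/kg array the lowest (0.74). The cause of this spread was not tested.

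**Figure D3:**
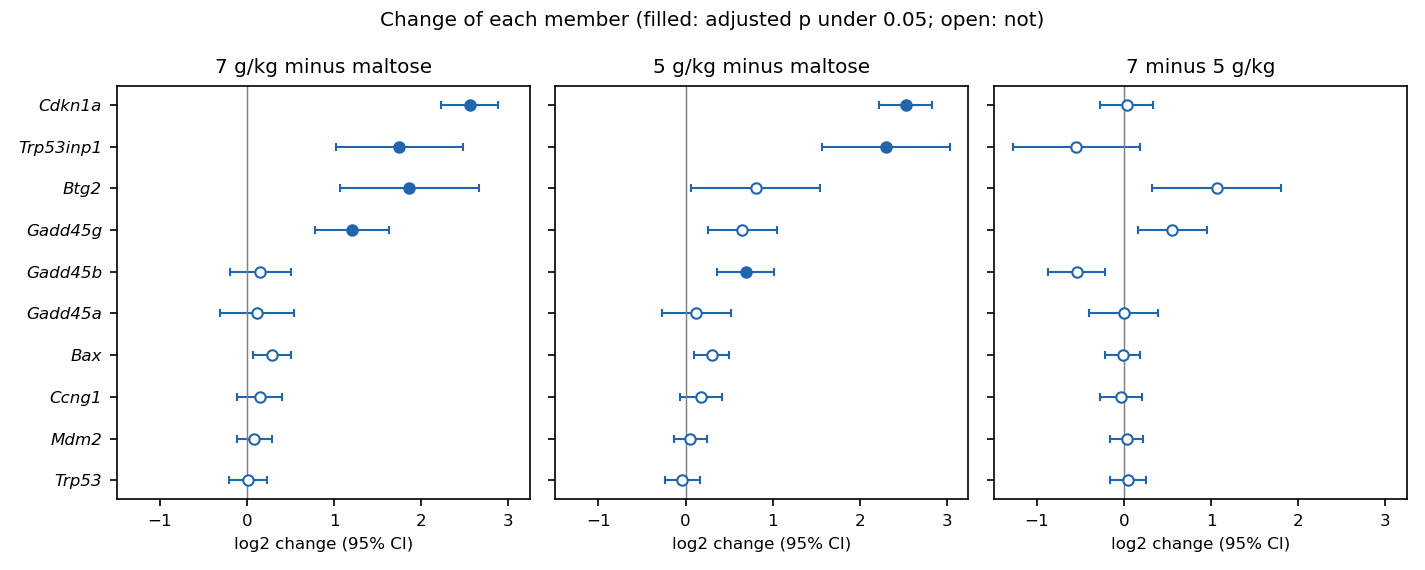
Log2 change of each member with its 95% confidence interval for 7 g/kg minus maltose, 5 g/kg minus maltose and 7 minus 5 g/kg, where filled points passed at an adjusted p under 0.05. There are 4 filled points in the first panel, 3 in the second and 0 in the third, and Cdkn1a has nearly the same change at both doses.

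Other p53 targets were described from a list of 36 genes, 32 of them tested. Of these 2 rose, 2 fell and 28 did not pass at 7 g/kg, with a median of 0.102, and at 5 g/kg 2 rose, 0 fell and 30 did not pass, with a median of 0.191, where 9% and 3.77% of all genes passed. Before adjustment 16 of the 32 had a p under 0.05 at 7 g/kg (9 higher and 7 lower), where 20.1% of all genes had, and 16 at 5 g/kg (13 higher and 3 lower), where 15.5% of all genes had. With 1 array left out 1 to 4 rose and 1 to 2 fell at 7 g/kg, and 1 to 3 rose at 5 g/kg. The count of 1 at 7 g/kg came without the second 7 g/kg array, the first maltose array or the third, and the count of 4 without the third 5 g/kg array. The count of 1 at 5 g/kg came without the first or the third maltose array. Ckap2, a spindle-associated protein gene, read 0.03, 0.77 and 0.42 on the 7 g/kg arrays, −0.03, −0.12, 0.90 and −0.52 on the 5 g/kg arrays, and −1.26, −1.18 and −1.24 on the maltose arrays. All its ethanol arrays lay above all maltose arrays. It rose by 1.63 at 7 g/kg (limma adjusted p = 0.00145) and by 1.28 at 5 g/kg (limma adjusted p = 0.0105). Perp, a desmosomal gene, fell by 0.48 at 7 g/kg, and Gls2, a liver glutaminase gene, fell by 0.54. The Gls2 call was lost without the first 7 g/kg array (adjusted p = 0.0811), the first maltose array (adjusted p = 0.0884) or the third (adjusted p = 0.0544). Aifm2, which encodes an oxidoreductase that protects lipids, rose by 0.60 at 5 g/kg (limma adjusted p = 0.0131), not without the first (adjusted p = 0.0569) or the third maltose array (adjusted p = 0.0689), and changed by 0.06 at 7 g/kg (adjusted p = 0.876).

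None of 13 tested regulators of p53 passed in any of the 3 comparisons of the limma fit. Of all genes 9% passed at 7 g/kg, 3.77% at 5 g/kg and 1.57% between doses. Before adjustment 3 regulators had a p under 0.05 at 7 g/kg and 1 at 5 g/kg, where 20.1% and 15.5% of all genes had. Mdm4, the partner of MDM2 in restraining p53, differed from maltose by 0.33 at 7 g/kg (adjusted p = 0.109) and by 0.17 at 5 g/kg (adjusted p = 0.509). Of the other cyclin-dependent kinase inhibitors, 5 were tested and 0 passed, with 0 under 0.05 before adjustment, and all 5 lay between 0.04 and 0.07 at 7 g/kg. Cdkn1b, which encodes p27, a relative of p21, changed by 0.06 at 7 g/kg and by 0.16 at 5 g/kg, against 2.56 and 2.53 for Cdkn1a. Of 12 tested BCL-2 family genes besides Bax, 0 passed at either dose. Before adjustment 5 at 7 g/kg and 3 at 5 g/kg had a p under 0.05, beside the same 20.1% and 15.5% of all genes. In this family 2 genes rose at 7 g/kg without the third 7 g/kg array and 1 without the third maltose array. Bak1, the partner of Bax, differed by 0.40 at 7 g/kg (adjusted p = 0.0771) and by 0.36 at 5 g/kg (adjusted p = 0.138), and the survival gene Bcl2l1 by 0.63 (adjusted p = 0.153) and 0.23 (adjusted p = 0.731).

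Genes that p21 and GADD45 act upon were described from lists of the G1/S machinery, of S phase and mitosis and of GADD45 partners. Of 11 tested genes of the G1/S machinery, 1 rose and 1 fell at 7 g/kg, and 0 rose and 1 fell at 5 g/kg, beside the 9% and 3.77% of all genes that passed. Those at 7 g/kg were Ccne1, a cyclin gene (0.47, adjusted p = 0.0313), whose call was lost without any 1 of 4 arrays, and Cdk4, a cyclin-dependent kinase gene (−0.44, adjusted p = 0.0291), whose call was lost without any 1 of 5. Of 20 tested genes of S phase and mitosis, 1 rose and 2 fell at 7 g/kg, and 0 rose and 1 fell at 5 g/kg, with medians of 0.0406 and 0.0029. Tk1, the thymidine kinase of S phase, read −1.06, −1.03 and −0.98 on the 7 g/kg arrays, −0.57, −0.27, −0.58 and −0.20 on the 5 g/kg arrays, and 0.72, 1.07 and 1.36 on the maltose arrays. The 3 groups did not overlap. It fell by 2.07 at 7 g/kg (limma adjusted p = 1.92e-06) and by 1.46 at 5 g/kg (limma adjusted p = 6.92e-05). Rrm2, the gene of a ribonucleotide reductase subunit, read 0.53, 0.11 and 0.49 on the 7 g/kg arrays, 0.05, −0.05, −0.28 and 0.06 on the 5 g/kg arrays, and −0.73, −0.45 and −0.13 on the maltose arrays. It rose by 0.81 at 7 g/kg (limma adjusted p = 0.00452) and changed by 0.38 at 5 g/kg (adjusted p = 0.208). Mcm7, a helicase gene of DNA replication, changed by −0.46 at 7 g/kg (adjusted p = 0.0465), a call that was lost without any 1 of 7 arrays, and by −0.35 at 5 g/kg (adjusted p = 0.164). Pcna, whose product p21 binds, changed by −0.12 at 7 g/kg (adjusted p = 0.638) and by −0.39 at 5 g/kg (adjusted p = 0.0435), and the 5 g/kg call was lost without any 1 of 7 arrays. Ccnd1 was listed but had no probe matched by symbol.

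Among 10 tested partners of the GADD45 proteins, 1 rose and 1 fell at 7 g/kg, where 9% of all genes passed, and 1 rose and 2 fell at 5 g/kg, where 3.77% did. Those that fell at 5 g/kg were Map2k6 and Pcna. Some lists share genes, and this Pcna call is the same one counted in the G1/S machinery. Map2k4, a kinase gene upstream of JNK, was the 1 that rose at 7 g/kg (0.48, adjusted p = 0.0477), lost without any 1 of 8 arrays, and Mapk14, which encodes a p38 kinase, the 1 that rose at 5 g/kg (0.39, adjusted p = 0.0269), lost without any 1 of 6. None of the partners passed at 5 g/kg without the first 5 g/kg array, the first maltose array or the third. Map2k6, a kinase that activates p38, read −0.84, −1.17 and −0.97 on the 7 g/kg arrays, −0.08, 0.18, −0.74 and 0.30 on the 5 g/kg arrays, and 0.95, 0.53 and 0.93 on the maltose arrays. The 3 groups did not overlap. It fell by 1.79 at 7 g/kg (limma adjusted p = 0.000125) and by 0.89 at 5 g/kg (limma adjusted p = 0.0236). The 5 g/kg call was lost without the first 5 g/kg array (adjusted p = 0.054), the first maltose array (adjusted p = 0.114) or the third (adjusted p = 0.107). The difference of −0.90 between the doses passed (limma adjusted p = 0.0371) and was lost without any 1 of 7 arrays.

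Relatives of Btg2 and Ccng1 gave 1 call of 9 tested genes at each dose, where 9% of all genes passed at 7 g/kg and 3.77% at 5 g/kg. Btg3, an antiproliferative gene of the Btg2 family, read 0.31, 0.78 and 0.11 on the 7 g/kg arrays, −0.07, 0.26, −0.32 and −0.44 on the 5 g/kg arrays, and −1.29, −1.17 and −1.60 on the maltose arrays. All ethanol arrays lay above all maltose arrays. It rose by 1.76 at 7 g/kg (limma adjusted p = 6.55e-05) and by 1.21 at 5 g/kg (limma adjusted p = 0.0017). Btg1 changed by −0.06 and 0.49 and Ccng2, the gene of cyclin G2, by 0.20 and 0.24, none of which passed. Of 4 further genes named for growth arrest and DNA damage, Ddit4, which encodes an inhibitor of mTORC1, was the 1 that passed. It read 0.86, 1.05 and 0.31 on the 7 g/kg arrays, 0.00, 0.20, 0.21 and 0.43 on the 5 g/kg arrays, and −0.78, −1.34 and −0.73 on the maltose arrays. It rose by 1.69 at 7 g/kg (limma adjusted p = 8.35e-05) and by 1.16 at 5 g/kg (limma adjusted p = 0.00226). Ddit3, the gene of CHOP, changed by 0.06 at 7 g/kg (adjusted p = 0.882) and 0.44 at 5 g/kg (adjusted p = 0.0774), and Ppp1r15a, known as Gadd34, by 0.21 and 0.19.

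Glucocorticoid targets and immediate early genes are set beside the members because some members are also known in those programmes. Of 9 tested glucocorticoid targets, 6 rose and 0 fell at 7 g/kg (median 0.702), and 4 rose and 0 fell at 5 g/kg (median 0.593). With 1 array left out 4 to 6 rose at 7 g/kg and 3 to 5 at 5 g/kg. The 7 g/kg calls of Tat and Dusp1 were each lost without any 1 of 3 arrays, and the 5 g/kg call of Fkbp5 without any 1 of 5. Tsc22d3, another listed target, changed by −0.39 at 7 g/kg (limma adjusted p = 0.351) and by 0.02 at 5 g/kg (limma adjusted p = 0.984). The metallothionein genes Mt1 and Mt2, which also respond to zinc and cytokines, rose by 4.07 and 3.34 at 7 g/kg and by 2.96 and 2.42 at 5 g/kg. Sgk1, a kinase gene, rose by 0.70 at 7 g/kg (limma adjusted p = 0.0033) and by 0.96 at 5 g/kg (limma adjusted p = 0.00053). Of 12 tested immediate early genes, 7 rose and 0 fell at 7 g/kg (median 0.718), and 5 rose and 1 fell at 5 g/kg (median 0.517), where 9% and 3.77% of all genes passed. Without the third maltose array 2 rose and 0 fell at 5 g/kg, and without the first 3 rose and 0 fell, while at 7 g/kg 7 rose with any 1 array left out. Zfp36, which encodes an mRNA decay protein, was the 1 that fell at 5 g/kg (−0.59, adjusted p = 0.0401), lost without any 1 of 6 arrays. Egr1, a zinc finger transcription factor gene, read 0.51, 1.69 and 0.18 on the 7 g/kg arrays, −1.33, −1.54, −0.45 and −1.40 on the 5 g/kg arrays, and −1.99, −2.49 and −2.83 on the maltose arrays. Like Btg2 and Trp53inp1, it was highest on the second 7 g/kg array. Egr1 rose by 3.23 at 7 g/kg (limma adjusted p = 4.94e-05), and the doses differed by 1.97 (limma adjusted p = 0.00583). The Egr1 change of 1.26 at 5 g/kg passed narrowly (limma adjusted p = 0.0433) and was lost without any 1 of 7 arrays.

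**Figure D4:**
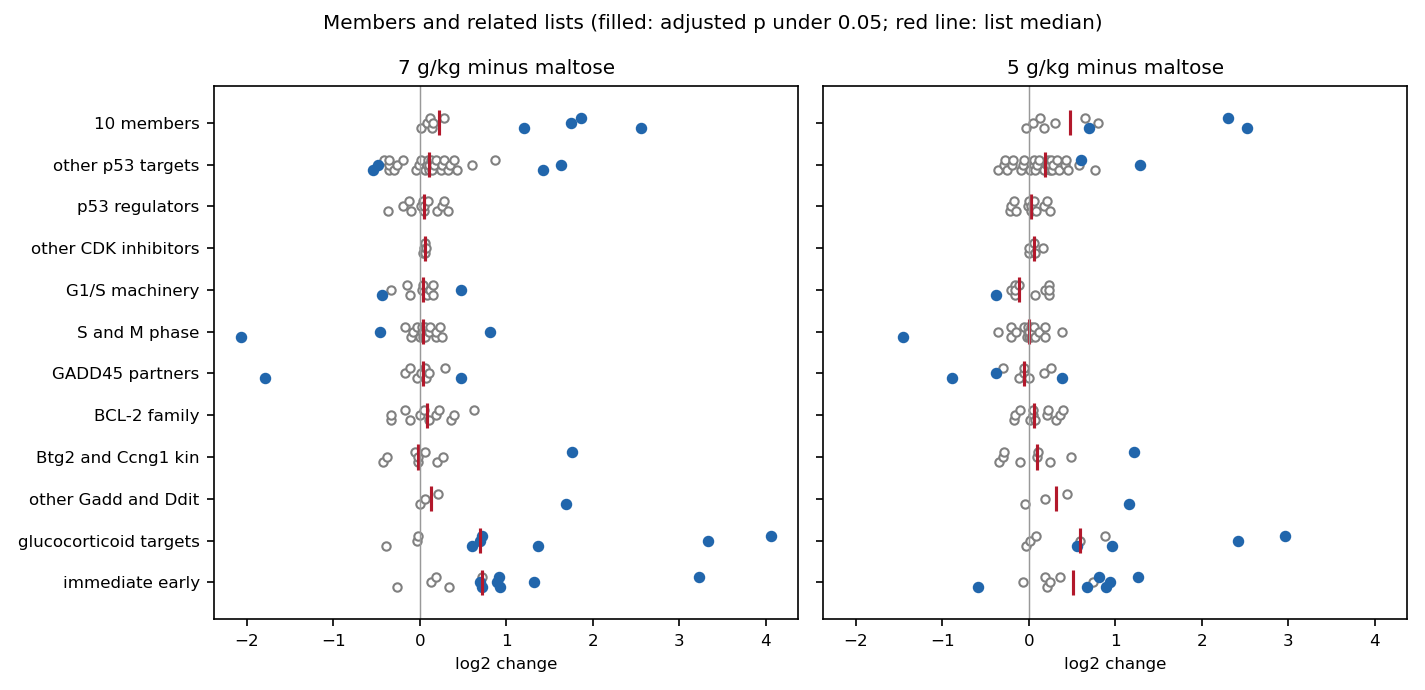
Log2 change from maltose (horizontal axis) of the 10 members and of 11 lists of related genes (rows) at 7 g/kg and at 5 g/kg, where each point is a gene, filled points passed at an adjusted p under 0.05 and the red line is the list's median. The medians of glucocorticoid targets and immediate early genes lie at 0.702 and 0.718 at 7 g/kg, and those of p53 regulators and other cyclin-dependent kinase inhibitors lie at 0.0508 and 0.061. The median of other p53 targets lies at 0.102 at 7 g/kg and at 0.191 at 5 g/kg.

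Likeness to Cdkn1a was measured as the root mean square difference, over the 10 arrays, of log2 ratios from each gene's maltose mean, among 13553 genes with a symbol and no missing value. Among the 5 nearest genes were Thbd (0.384), Il1r1 (0.596), Mt2 (0.627) and Hp (0.704), in log2 units. Thbd, the gene of thrombomodulin, read 0.45, 0.81 and 0.18 on the 7 g/kg arrays, 0.23, −0.04, 0.01 and 0.09 on the 5 g/kg arrays, and −2.03, −1.40 and −2.31 on the maltose arrays. Of the members, Btg2 was the nearest in place 104 and Gadd45g followed in place 197, while Trp53 was the farthest in place 7412. Trp53inp1 has a missing value and was not placed. Nearness here measures the size of the change as well as its shape, and the points share arrays. It was measured in the main processing alone. Over the 20 alternatives described below, the 7 g/kg change ran from 2.19 to 5.11 for Thbd and from 0.506 to 2.27 for Hp. That of Cdkn1a ran from 2.45 to 2.72.

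Cell type markers were followed because whole liver holds several cell types. Of all genes 9% passed at 7 g/kg and 3.77% at 5 g/kg, and 20.1% and 15.5% had an unadjusted p under 0.05. Of 7 endothelial markers, 3 rose at 7 g/kg (Lyve1 by 1.72, Cdh5 by 0.68 and Pecam1 by 0.59) and 2 at 5 g/kg (Lyve1 by 1.29 and Cdh5 by 0.59). Without the first or the third maltose array Lyve1 alone rose, at each dose, and the 5 g/kg call of Cdh5 was also lost without the first, the third or the fourth 5 g/kg array. The 7 g/kg call of Pecam1 was lost without any 1 of 6 arrays. The median level of the endothelial markers per array relative to the maltose mean was 0.106 to 0.454 at 7 g/kg, −0.0199 to 0.396 at 5 g/kg and −0.0374 to 0.0522 with maltose. Of 7 stellate cell markers, 1 rose at 7 g/kg and 2 at 5 g/kg, with levels of 0.262 to 0.376, 0.21 to 0.364 and −0.173 to 0.0968 in the same order. Before adjustment 5 of the 7 had a p under 0.05 at 7 g/kg and 3 at 5 g/kg, all higher. These counts were 3 and 3 for endothelial, 2 and 2 for neutrophil and 3 and 3 for lymphocyte markers, also all higher. They were 1 and 2 for hepatocyte markers, all higher, and for cholangiocyte markers 2 (1 of them lower) and 1 (lower). Of 6 neutrophil markers, 2 rose at 7 g/kg, S100a8 by 1.28 and S100a9 by 1.41, and 0 passed at 5 g/kg. S100a8 stood well above background on only 6 arrays, and S100a9 on all arrays. Over the alternatives described below, the 7 g/kg change ran from 1.13 to 3.82 for S100a8 and from 1.2 to 1.65 for S100a9. The size of the S100a8 change thus depended on the processing. The levels of the neutrophil markers were 0.0924 to 0.189 at 7 g/kg, 0.00223 to 0.348 at 5 g/kg and −0.0998 to 0.085 with maltose. Of 7 lymphocyte markers, 2 rose at 7 g/kg, Nkg7 by 0.61 and Cd3e by 0.44, and Nkg7 rose at 5 g/kg by 0.62, with levels of 0.172 to 0.325 at 7 g/kg, 0.0109 to 0.273 at 5 g/kg and −0.0816 to 0.0585 with maltose. None of the lymphocyte markers passed at 7 g/kg without the first 7 g/kg array or the first maltose array, and 1 without any of the other 4 arrays of these groups, and the Nkg7 call at 5 g/kg was lost without any 1 of 6 arrays. None of 7 tested Kupffer cell markers passed at either dose (1 and 0 with an unadjusted p under 0.05), and their levels were −0.249 to 0.238 at 7 g/kg, −0.0742 to 0.114 at 5 g/kg and −0.128 to 0.0554 with maltose. Of 4 hepatocyte markers 1 rose at 7 g/kg, Ttr by 0.69, a call lost without any 1 of 6 arrays, and 0 at 5 g/kg. Of 5 cholangiocyte markers 1 fell at 5 g/kg, Spp1 by 0.48, a call lost without any 1 of 3 arrays. Of 6 tested markers of exocrine pancreas, 0 passed, also before adjustment. No marker matched to a probe was below background on all arrays. Some markers, S100a8 among them, were well above it on only part of the arrays. The part of these cells in the changes of Cdkn1a, Trp53inp1, Gadd45g, Gadd45b and Btg2 was not tested.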

How the data were processed

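Liver RNA in Cy5 was read against a common RNA in Cy3 on 10 Agilent arrays of 45018 spots, with no dye swap. The scanner software was Agilent Feature Extraction 11.5.1.1, and per the file headers it gave the deposited spot and background intensity of both channels, and a log10 ratio of processed signals. The deposited series table of 40599 probes holds log2 ratios: its slope on the scanner's log10 ratio was 3.32 to 3.34 (r 0.94 to 1), which sets scale and direction. Its column medians ran from −0.0723 to 0.0759, and its centring and any further step are not given in the sources used here.

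Median intensities were corrected (normexp, offset 50) and loess normalized within arrays in R 4.3.3 with limma 3.58.1, outlier-marked spots (2.42% to 5.83% per array) left out and the spots of a probe averaged. Saturated spots numbered 0. A RefSeq symbol was found for 24375 of 41174 probes (59.2%). Probes well above background in the liver channel on at least 3 arrays were kept, with at least 2 values per group, and the brightest probe stood for its gene. Results for other probes of a gene come from a fit of all 32616 such probes.

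All 3 groups entered 1 limma fit with 7 residual and 7.22 prior degrees of freedom, with Benjamini-Hochberg adjustment over 26122 genes, two-sided. Apart from the promoter windows and stretches, coordinates are left out because the design's build, mm8, differs from that of the annotation. Named genes were all members, the 5 genes most like Cdkn1a, up to 4 genes per list with the smallest p, and 10 genes of the lists named whatever their result. Some genes that this rule names are not reported here. The members, lists and tests were chosen with earlier results of these data known. Same-numbered samples of different groups had deviations correlated at −0.203 to 0.196 (2 of 9 pairs over 0.1), so the numbers were not used as pairs. Alternatives changed background, normalization, channel, source, filter, outlier spots, probe choice, slide or replicate block, and left out each array. The limma fit was tested on simulated log2 ratios with independent noise, and the steps before it were not tested in this way.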

Additional observations from a re-analysis of the deposited data

Results flagged for a closer look

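Within the 5 g/kg group of 4 arrays, 1 array stood far from the other three for 3 of 94 genes examined, by the ratio of its gap to the group's range (Dixon's test at 95%). Chance alone gives about 1 in 20 such cases, so fewer were found than chance gives. Of the members, Ccng1 read −0.0256 on the second 5 g/kg array, with the others at −0.0882 to −0.0808, a gap that is small on the log2 scale. Tob2, an antiproliferative gene related to Btg2, read −0.0409 on the fourth array, with the others at −0.23 to −0.205. Mcm7, a helicase gene of DNA replication, read 0.155 on the first array, with the others at −0.326 to −0.256. Groups of 3 arrays, and with them the second 7 g/kg array, were not examined in this way.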

How the results depend on the processing

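Each member's changes were recomputed under 20 alternatives. Cdkn1a passed in all 20, with a log2 change of 2.45 to 2.72 at 7 g/kg and 2.43 to 2.69 at 5 g/kg. So did Trp53inp1 (1.21 to 2.14 and 2.12 to 2.56), and at 7 g/kg Gadd45g (1.08 to 1.27) and Btg2 (1.35 to 2.25). The Gadd45b call at 5 g/kg held in 11 of 20 (0.56 to 0.86, adjusted p 0.00619 to 0.292), and was lost among others with scanner processed signals (adjusted p = 0.104) and with the mean of its probes (0.59, adjusted p = 0.0737). Of 140 values called, 131 kept the call, 9 lost it and 0 changed sign. Of 460 not called, 4 gained a call and 33 changed sign without passing.

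The count of all genes was less stable than the members. At 5 g/kg 513 genes passed with scanner processed signals, 577 with the series table and 128 with the liver channel alone, against 985. At 7 g/kg 521 passed with the liver channel alone, against 2350. Between doses 116, 137 and 38 passed with those 3 settings, against 410. Leaving out 1 array gave 1495 to 2343 genes at 7 g/kg, 464 to 1053 at 5 g/kg and 222 to 429 between doses, and 4, 2 to 4 and 0 to 1 members. The 464 came without the first maltose array, and 632 and 503 without the second and the third. With slide as a block 1751, 907 and 342 genes passed, and 1 member differed between doses, Btg2. Of the calls 51.9%, 58.7% and 42.2% were higher, and 67%, 75.2% and 52.2% with median centring and 63.3%, 70.3% and 60.5% with the liver channel alone. Junb between doses reversed, to −0.0884 with the series table and −0.00645 with outlier-marked spots kept. The causes were not tested.

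With the replicate number as a block, which does not mark a pairing here, 2318, 934 and 289 genes and 4, 3 and 0 members passed. At 5 g/kg Gadd45b was then at 0.61 (adjusted p = 0.063) and Gadd45g at 0.73 (adjusted p = 0.047).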
